A study of Mus musculus with 8 samples.

Results

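Mouse embryonic fibroblasts lacking both Gadd45a and Ing1 (double knockout, DKO) were compared with wild-type (WT) fibroblasts on Illumina mouse arrays. The comparison took every array whose title gives one of these genotypes, 2 DKO and 2 WT arrays, 4 of the 8 in the study. The remaining 4 arrays were 2 of Gadd45a-/- and 2 of Ing1-/- fibroblasts. All cells were C57BL/6, came from male embryos of stage E15.5, received no treatment named in the labels, and were harvested when confluent at passage 3. Duplicates were collected from each fibroblast line, according to the design text. The 2 DKO arrays, and likewise the 2 WT arrays, may thus share a line, in which case an effect of the line cannot be told apart from one of the genotype. The p-values measure only how far these arrays spread, which may be technical.

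Gadd45a encodes a small nuclear protein that is induced by DNA damage and other stresses and has been linked to growth arrest, repair and the active removal of DNA methylation. Ing1 encodes a chromatin reader of the inhibitor of growth family, which binds a histone methylation mark of active promoters and acts within histone deacetylase complexes. Embryonic fibroblasts are mesenchymal cells that secrete collagens, proteoglycans and proteases, and in culture they keep part of the positional gene expression of the body region they came from.

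Of 45281 probes, 14353 had a detection p under 0.01 on both arrays of WT or of DKO and were tested. Of these, 13206 passed in both genotypes, 539 in WT alone and 608 in DKO alone. Levels are normalized log2 intensities, and a call is a Benjamini-Hochberg adjusted p under 0.05 from limma, a linear model fitted to all 8 arrays. Between 14277 and 14778 probes were above background on an array. Across probes the 2 WT arrays correlated with Pearson's r of 0.9877 and the 2 DKO arrays with 0.9940, while WT and DKO arrays correlated with 0.9794 to 0.9850, and probes are not independent replicates. One WT array reached 0.9894 with an Ing1-/- array, above the value between the 2 WT arrays. One probe each of the Y-linked genes Kdm5d, Eif2s3y and Uty was above background on all 8 arrays and no probe of Xist was. All 13 fibroblast marker genes were above background on WT or DKO arrays.

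The 2 targeted genes were read first. The 2 Gadd45a probes were brighter on the arrays labelled DKO, not dimmer. One read 10.93 and 10.71 on the WT arrays and 11.80 and 11.69 on the DKO arrays. The other read 9.70 and 9.54 in WT and 11.08 and 10.78 in DKO. Neither probe overlapped between the genotypes, which held for 46.6% of all probes tested. The log2 differences were 0.92 ± 0.12 (SE, limma adjusted p = 0.00606) and 1.31 ± 0.14 (SE, limma adjusted p = 0.00315). This goes against the label. The same held for the arrays labelled Gadd45a-/-, where the 2 probes had means of 11.82 and 10.91, while the Ing1-/- arrays had means of 10.13 and 9.17. The call of the first probe was lost without DKO replicate 1. Which part of the gene was deleted is not stated in the labels, and a probe outside that part would check nothing. The single Ing1 probe was not above background on any of the 8 arrays, so it does not check the label either. DKO and Gadd45a-/- below mean the arrays labelled so, and each direction rests on those labels.

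The arrays labelled DKO differed from WT at 603 probes, 4.2% of those tested, of which 289 were higher (2.01%) and 314 lower (2.19%). Counted by gene, with the brightest kept probe standing for each of 8453 named genes, 404 genes were called (4.78%), 201 higher (2.38%) and 203 lower (2.4%). The median log2 difference over all genes was 0.01. No called probe overlapped between the 2 genotypes, and 46.6% of all probes tested did not overlap. Of the called probes, 67 of the higher ones were not above background on either WT array, 60 of the lower ones were not above background on either DKO array, and the other 476 were measured on both sides. The number of calls was 279 without WT replicate 1, 174 without DKO replicate 1 and 181 without DKO replicate 2. Scaling arrays to a common median in place of quantile normalization moved the median over all probes tested to -0.16. The share of calls that were higher moved from 47.9% to 25.1%, so differences near 0 have no settled direction.

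**Figure D1:**
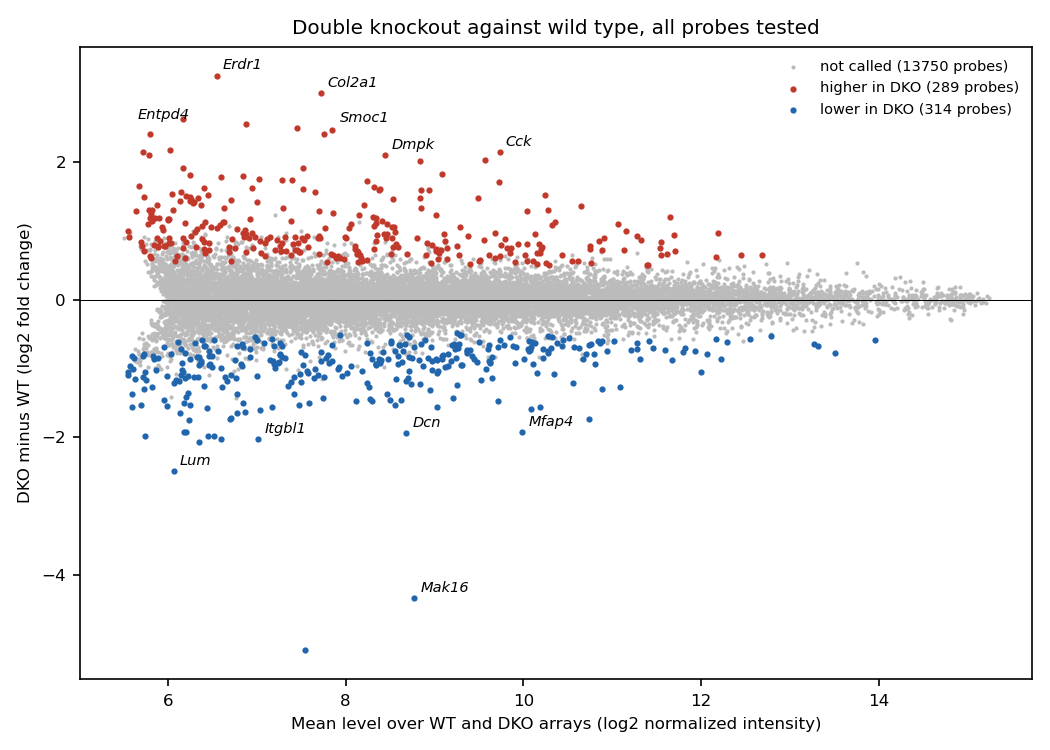
Log2 fold change of DKO minus WT against the mean level over the 4 WT and DKO arrays (log2 normalized intensity), 1 point per probe for 14353 probes. Red points are the 289 probes called higher and blue points the 314 called lower. Mak16 and an unnamed probe lie far below all others.

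The 15 largest rises, by the fitted difference, included Col2a1, Smoc1 and Cck. Col2a1, the chain of type II collagen made by cartilage cells, read 6.26 and 6.21 in WT and 9.10 and 9.35 in DKO. It was 7.96-fold higher, a log2 difference of 2.99 ± 0.13 (SE, limma adjusted p = 8.68e-05). Smoc1, a secreted matrix protein known to restrain BMP signalling, read 6.73 and 6.50 in WT and 9.12 and 9.04 in DKO. It rose by 2.46 ± 0.12 on the log2 scale (limma adjusted p = 0.000163). Cck, the precursor of the peptide hormone cholecystokinin, read 8.63 and 8.70 in WT and 10.87 and 10.74 in DKO, a 4.42-fold rise (limma adjusted p = 0.000163). In all 3 genes the gap between the genotypes was many times the gap between replicate arrays. In such cultures a change in the number of cells of a type and a change in RNA per cell cannot be told apart.

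Dmpk, Pdk4 and Chst7, which encode enzymes, were also among the 15 largest rises. Dmpk, the kinase gene mutated in myotonic dystrophy, read 7.45 and 7.35 in WT and 9.39 and 9.61 in DKO, 4.28-fold higher (limma adjusted p = 0.000316). Pdk4, a kinase that switches off pyruvate dehydrogenase and so spares glucose, read 6.24 and 6.06 in WT and 7.93 and 7.89 in DKO, 3.38-fold higher (limma adjusted p = 0.00061). Chst7, a sulfotransferase for glycosaminoglycan chains, read 6.37 and 6.76 in WT and 8.51 and 8.44 in DKO, 3.75-fold higher (limma adjusted p = 0.000773). None of these 3 genes overlapped between the genotypes, which the choice of the 15 rises required.

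Several of the rises started from a level that the WT arrays did not detect. Where neither array of one genotype detected a probe, only a lower limit of the fold is given, written as at least. It sets the mean of the genotype that detected the probe against the detection limit, or against the dim probe's own signal where that was higher. Erdr1 read 4.96 and 4.89 on the WT arrays and 7.92 and 8.43 on the DKO arrays, at least 4.72-fold higher (limma adjusted p = 0.00061). Aqp5, a water channel of secretory epithelia, was at least 2.95-fold higher (limma adjusted p = 0.00332), with 5.85 and 5.57 in WT and 7.37 and 7.62 in DKO. Unc5c, a netrin receptor, was at least 2.34-fold higher and Jam2, a junctional adhesion molecule, at least 2.28-fold higher. Slco4a1, an organic anion transporter, was at least 2.26-fold higher. Pkp1, a desmosome protein, was detected on 1 WT array and read 6.13 and 5.78 in WT against 7.73 and 7.77 in DKO, 3.47-fold higher (limma adjusted p = 0.000989).

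In 3 of the largest rises the gene's other probes did not follow. One probe of Pde4dip, a centrosome and Golgi anchoring protein, read 6.53 and 6.58 in WT and 8.81 and 9.11 in DKO, while the other 2 probes differed by -0.10 and 0.05 and were not called. One probe of Entpd4, a Golgi nucleotidase, was at least 2.09-fold higher, while its brighter probe differed by 0.26 (limma adjusted p = 0.458). One probe of Slc25a37, a mitochondrial iron importer, was at least 1.80-fold higher, while its brighter probe differed by 0.30 (limma adjusted p = 0.579). The change at these 3 genes is therefore a change of single probes.

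Lum, Dcn, Mfap4 and Mmp13 were among the 15 largest falls. Lum, the proteoglycan lumican, read 7.58 and 7.04 in WT and 4.70 and 4.94 in DKO, where it was not above background, at least 2.59-fold lower (limma adjusted p = 0.000773). Dcn, the related proteoglycan decorin, fell by 1.74 ± 0.12 at its brighter probe (SE, log2, limma adjusted p = 0.00061), from 11.59 and 11.63 to 9.88 and 9.87. Its second probe fell by 1.94. Mfap4, a protein of elastic microfibrils, read 10.999 and 10.90 in WT and 9.22 and 8.84 in DKO, 3.78-fold lower (limma adjusted p = 0.00121). Mmp13, a collagenase, read 7.69 and 7.55 in WT and was not above background in DKO, at least 3.20-fold lower (limma adjusted p = 0.000267). These 4 genes did not overlap between the genotypes, which the choice of the 15 falls required.

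Cxadr, Igfbp3, Tenm4, Itgbl1, Cldn1, Enox1 and Cox6a2 were in the same set of falls. One probe of Cxadr, a tight junction protein first known as a virus receptor, was at least 3.09-fold lower. The brighter Cxadr probe, above background in DKO, fell less, by 1.25 (log2, limma adjusted p = 0.0138). Igfbp3, a carrier of insulin-like growth factors, was at least 3.09-fold lower. Tenm4, a teneurin of the cell surface, read 7.39 and 7.63 in WT and 5.46 and 5.60 in DKO, at least 2.96-fold lower (limma adjusted p = 0.00216). Itgbl1, a secreted integrin-like protein, read 7.94 and 8.12 in WT and 5.99 and 6.02 in DKO, 4.07-fold lower (limma adjusted p = 0.00311). Cldn1, a claudin of tight junctions, was above background on only 1 of the 2 DKO arrays and read 7.65 and 7.55 in WT and 6.05 and 5.87 in DKO, 3.12-fold lower (limma adjusted p = 0.000851). Enox1 was at least 2.30-fold lower and Cox6a2, a cytochrome c oxidase subunit of heart and muscle, at least 2.25-fold lower. The Cox6a2 call was lost when either WT array, either Ing1-/- array or either DKO array was left out, and the Igfbp3 call without DKO replicate 2.

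The 2 deepest falls were at single probes. One probe of Mak16, a ribosome assembly factor known from yeast, read 10.87 and 11.003 in WT and 6.72 and 6.49 in DKO, 20.1-fold lower (limma adjusted p = 0.000316). The other 2 Mak16 probes differed by 0.19 and 0.05 and were not called. Fut10, which encodes a member of the fucosyltransferase family, was at least 2.85-fold lower at 1 of its 3 probes and fell by 1.46 and 1.20 (log2) at the other 2. Both genes lie on chromosome 8 within 25 Mb of Ing1, where 11 of 99 genes had a called probe (11.11%), against 462 of all 8453 genes (5.47%). Within 25 Mb of Gadd45a on chromosome 6 it was 16 of 170 genes (9.41%), among them Hoxa2, Hoxa5 and Hoxa7. No test was made of these shares, since neighbouring genes are not independent. The deepest fall of all was at a probe that no symbol is given for, the unnamed probe ILMN_1219113. It read 10.21 and 9.98 in WT, 4.78 and 5.23 in DKO, and 4.90 and 4.65 in Ing1-/-.

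**Figure D2:**
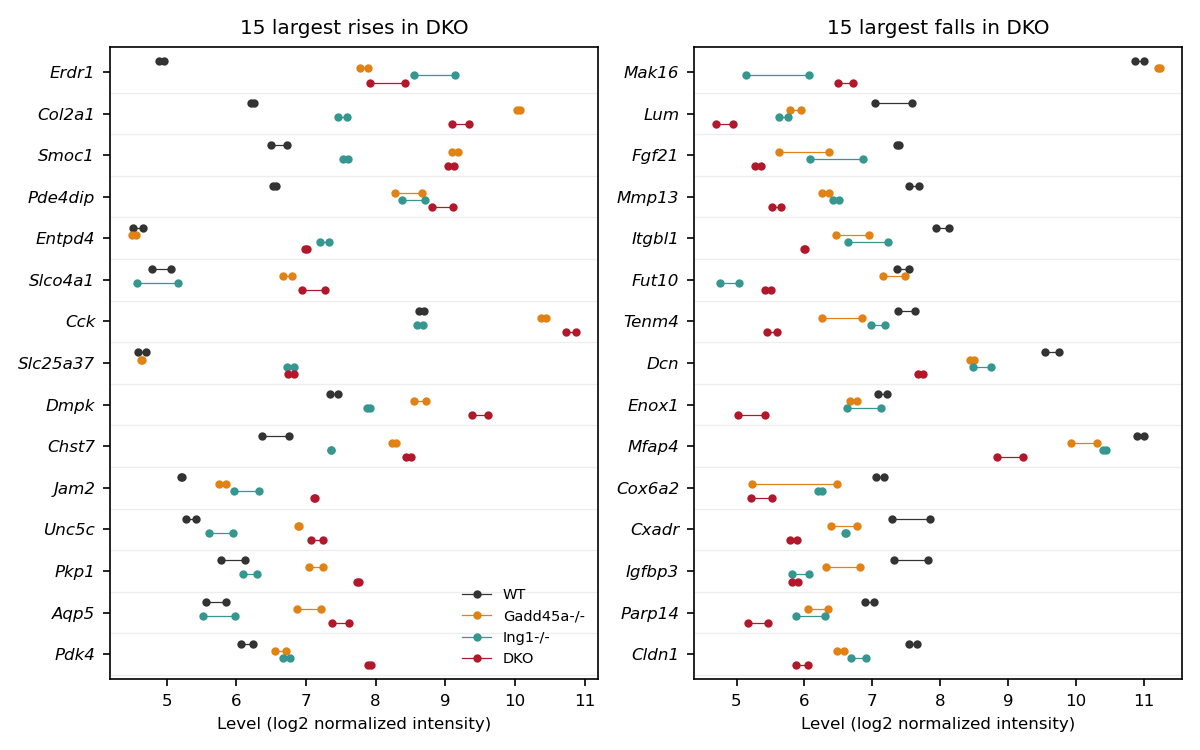
Levels (log2 normalized intensity) of the 15 genes with the largest rises and the 15 with the largest falls, 1 point per array and a line joining the 2 arrays of a genotype. The DKO points lie apart from the WT points in all 30 genes, which the choice of genes required.

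The single knockouts share the WT arrays with this comparison, so their differences from WT are given only side by side, and DKO was tested against each of them directly. DKO differed from Gadd45a-/- at 52 probes (0.362%), 23 higher (0.16%) and 29 lower (0.202%). It differed from Ing1-/- at 158 probes (1.1%), 101 higher (0.704%) and 57 lower (0.397%). The mean level of Dmpk was 7.40 in WT. It was 8.64 in Gadd45a-/-, 7.90 in Ing1-/- and reached 9.50 in DKO. Its DKO level was above that of Gadd45a-/- (limma adjusted p = 0.0451) and of Ing1-/- (limma adjusted p = 0.00346). Pdk4 stood at 6.15, 6.63, 6.72 and 7.91 in the same order, and DKO was above both single knockouts (limma adjusted p = 0.00882 and 0.00715). Jam2 was above both as well (limma adjusted p = 0.012 and 0.0218). The brighter Dcn probe stood at 11.61, 10.72, 10.95 and 9.87, below both single knockouts (limma adjusted p = 0.042 and 0.0105). Enox1 was also below both (limma adjusted p = 0.0284 and 0.011). In these 5 genes the double knockout was the genotype farthest from WT. They were taken from the largest differences between DKO and WT, a choice that favours this order. The tests against the single knockouts use the same DKO arrays, so they are not independent of that choice.

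Other large changes set DKO apart from one single knockout. Cck had mean levels of 8.67 (WT), 10.41 (Gadd45a-/-), 8.63 (Ing1-/-) and 10.81 (DKO). DKO differed from Ing1-/- (limma adjusted p = 0.000887) and the difference from Gadd45a-/- did not pass (limma adjusted p = 0.284). Col2a1 stood at 6.23, 10.05, 7.52 and 9.23, above Ing1-/- (limma adjusted p = 0.00308), with an adjusted p of 0.0511 in limma against Gadd45a-/-. Smoc1, Slco4a1, Chst7, Unc5c, Pkp1 and Aqp5 were likewise higher in DKO than in Ing1-/-. Mak16, in contrast, stood at 10.94, 11.22, 5.60 and 6.61, below Gadd45a-/- (limma adjusted p = 0.000484), with no call against Ing1-/- (limma adjusted p = 0.155). Entpd4 and Slc25a37 differed from Gadd45a-/- (limma adjusted p = 0.000176 and 0.000311) and were not called against Ing1-/-. A p that misses the threshold does not show that 2 genotypes had the same level.

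Some further genes that differed from both single knockouts were picked out after their values were seen. Mylk, the kinase that activates smooth muscle myosin, had mean levels of 9.97 (WT), 10.56 (Gadd45a-/-), 10.67 (Ing1-/-) and 11.33 (DKO) (limma adjusted p = 0.0427 and 0.0397 against the single knockouts). Npr3, a clearance receptor for natriuretic peptides, stood at 7.79, 7.75, 8.06 and 8.85 (limma adjusted p = 0.0179 and 0.031). One probe of Mest, an imprinted gene expressed from the paternal copy, stood at 8.32, 8.54, 8.61 and 7.19 (limma adjusted p = 0.0117 and 0.00603). The brightest Mest probe differed between DKO and WT by -0.78 and was not called. Irgm2, an interferon-induced GTPase, stood at 6.69, 6.59, 6.23 and 5.23 (limma adjusted p = 0.027 and 0.0386).

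Of the interferon response genes measured, 10 of 21 were lower in DKO and none was higher. Type I interferons are secreted signals that induce antiviral genes through the interferon-stimulated response element in their promoters. Of 37 genes listed, 33 had a probe, 21 were measured and 11 were not called. The list's median log2 difference was -0.75, against 0.01 over all genes, and 2.4% of all genes were lower. Isg15, a ubiquitin-like antiviral protein, read 8.62 and 8.30 in WT and 6.92 and 7.16 in DKO, 2.68-fold lower (limma adjusted p = 0.00685). Shfl, an inhibitor of viral translation, read 8.97 and 9.01 in WT and 7.39 and 7.71 in DKO, 2.71-fold lower (limma adjusted p = 0.00333). Parp14, an ADP-ribosyltransferase, was not above background in DKO and was at least 2.03-fold lower (limma adjusted p = 0.00332). The WT and DKO arrays did not overlap for any of these genes, which held for every called probe and for 46.6% of all probes tested.

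The other interferon genes that fell included factors that carry the signal to the nucleus. Irf9, a DNA-binding factor of the response, read 8.25 and 8.07 in WT and 7.20 and 7.11 in DKO and fell by 1.00 (log2, limma adjusted p = 0.00522). Stat2 was not above background in DKO and was at least 1.40-fold lower (limma adjusted p = 0.0316). Oasl2, Samd9l, Gbp2, Ifit3 and Trim25 fell by 1.12, 0.87, 0.81, 0.75 and 0.61. Of the members not called, Bst2 differed by -1.03, with WT arrays at 7.57 and 8.40 and DKO arrays at 7.05 and 6.86. Eif2ak2, the double-stranded RNA sensor kinase PKR, differed by 0.03. The count of 10 was 6 without WT replicate 2, 3 without DKO replicate 1 and 4 without DKO replicate 2, and the list's median lay between -0.78 and -0.61 over all single arrays left out, but was -0.38 with no background correction. The Oasl2 call was lost without either WT or either DKO array, and the Isg15 call without DKO replicate 1.

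The promoters of 3 genes that fell are shown because each holds the core of the interferon-stimulated response element. The windows run from 250 bases before to 50 after the start site, from RefSeq on build GRCm38.p6, and capitals mark the letters GAAANNGAAA on either strand.
Isg15 (chr4:156200769-156201068, minus strand): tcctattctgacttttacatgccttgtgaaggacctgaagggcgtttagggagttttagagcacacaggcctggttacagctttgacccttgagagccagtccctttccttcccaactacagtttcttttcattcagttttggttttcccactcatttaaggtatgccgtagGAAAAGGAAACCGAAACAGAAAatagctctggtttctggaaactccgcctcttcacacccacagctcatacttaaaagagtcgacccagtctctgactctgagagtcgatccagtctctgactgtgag
Ifit3 (chr19:34583279-34583578, plus strand): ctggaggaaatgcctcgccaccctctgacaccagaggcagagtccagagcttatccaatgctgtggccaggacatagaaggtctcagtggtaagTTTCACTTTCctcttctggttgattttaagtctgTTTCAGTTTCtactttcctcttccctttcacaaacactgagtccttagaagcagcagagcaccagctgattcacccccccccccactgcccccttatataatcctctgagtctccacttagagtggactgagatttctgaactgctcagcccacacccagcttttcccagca
Stat2 (chr10:128270248-128270547, plus strand): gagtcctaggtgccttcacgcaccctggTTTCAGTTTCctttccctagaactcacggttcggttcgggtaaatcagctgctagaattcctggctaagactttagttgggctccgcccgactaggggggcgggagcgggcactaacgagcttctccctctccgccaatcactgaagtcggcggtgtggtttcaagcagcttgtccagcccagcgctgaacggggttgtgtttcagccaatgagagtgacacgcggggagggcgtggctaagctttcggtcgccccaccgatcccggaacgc
The Isg15 window holds 3 overlapping matches 66 to 78 bases before the start site. The core was found in 4 of the 8 lower members with a window (Isg15, Gbp2, Ifit3 and Stat2) and in 6 of the 9 members that were not called and had one. Over all 32851 windows the share was 3.44%. A match describes letters, not a bound site, and it occurs in members with and without a call.

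Antigen presentation genes, many of which are induced by interferon, were lower in part. Of 15 genes listed, 14 had a probe and 10 were measured, of which 3 fell and none rose, with a median log2 difference of -0.49. The share of all genes called lower was 2.4%. Psmb8, an immunoproteasome subunit, read 8.55 and 7.88 in WT and 7.16 and 7.01 in DKO, 2.20-fold lower (limma adjusted p = 0.0332). H2-T23, a nonclassical class I molecule, read 8.77 and 8.92 in WT and 7.78 and 8.07 in DKO, 1.89-fold lower (limma adjusted p = 0.021). H2-D1, a classical class I molecule, read 11.04 and 11.09 in WT and 10.46 and 10.35 in DKO, 1.58-fold lower (limma adjusted p = 0.0228). A dimmer H2-D1 probe was also called lower, while another, at -0.75, was not called. Genes of the H2 family have near-identical copies that probes may not separate. The count of 3 was 0 without WT replicate 1, 1 without WT replicate 2 and 0 without either DKO array.

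Of the integrated stress response genes measured, 4 of 12 were lower in DKO and none was higher. In this response, kinases that sense amino acid shortage or protein misfolding lower general translation and raise the factor ATF4, which acts with C/EBP partners at composite elements. Of 14 genes listed, 13 had a probe and 12 were measured. The median log2 difference was -0.48, and all 12 differences were below 0. Over all genes, 47.6% of differences were below 0 and 2.4% of genes were called lower. Fgf21, a stress-induced hormone, read 7.36 and 7.39 in WT and 5.36 and 5.27 in DKO, at least 2.71-fold lower (limma adjusted p = 0.0077). Trib3, a pseudokinase, read 11.55 and 11.53 in WT and 10.32 and 10.16 in DKO, 2.47-fold lower (limma adjusted p = 0.00635). A dimmer Trib3 probe was also called, at -1.49, while another, at -1.15, was not. Chac1, an enzyme that degrades glutathione, read 12.30 and 12.31 in WT and 11.58 and 11.53 in DKO, 1.68-fold lower (limma adjusted p = 0.00892). Vldlr, a lipoprotein receptor, fell by 0.53 (log2, limma adjusted p = 0.049). The genotypes did not overlap in these 4 genes, which held for every called probe and for 46.6% of all probes tested.

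Atf4 itself read 13.33 and 13.55 in WT and 13.16 and 13.09 in DKO, a log2 difference of -0.32 that was not called. Ddit3, the factor CHOP, differed by -0.56 and Asns, asparagine synthetase, by -0.46 at its brightest probe, neither called. A dimmer Asns probe fell by 0.95 (log2, limma adjusted p = 0.0111), a call lost without WT replicate 1 or DKO replicate 1. The count of 4 was 1 without DKO replicate 1 and 0 without DKO replicate 2, and it was 8 with no background correction. The Vldlr call was lost whichever of the 8 arrays was left out. In the related list of amino acid supply and tRNA charging, 22 genes were measured, with a median of -0.29. None rose and 3 fell (13.6%), against 2.4% of all genes called lower. The 3 were Cth, an enzyme of cysteine synthesis (-1.20), Slc7a3, a transporter of cationic amino acids (-1.08), and Gpt2, a mitochondrial alanine transaminase (-0.85). That count was 1 without WT replicate 1, 0 without DKO replicate 1 and 1 without DKO replicate 2. A dimmer probe of Eprs, a tRNA synthetase, fell by 0.54 (log2, limma adjusted p = 0.0495) and lost the call whichever array was left out.

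The promoters of the 3 stress response genes with the largest falls are shown with the core of the C/EBP-ATF composite element, TGATGNAA on either strand, in capitals (same windows and build).
Fgf21 (chr7:45615441-45615740, minus strand): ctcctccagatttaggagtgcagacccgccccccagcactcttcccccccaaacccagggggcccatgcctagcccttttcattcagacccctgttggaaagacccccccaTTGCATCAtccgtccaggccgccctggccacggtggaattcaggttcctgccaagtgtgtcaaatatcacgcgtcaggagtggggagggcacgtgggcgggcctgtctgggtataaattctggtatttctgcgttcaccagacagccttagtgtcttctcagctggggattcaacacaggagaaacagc
Trib3 (chr2:152344011-152344310, minus strand): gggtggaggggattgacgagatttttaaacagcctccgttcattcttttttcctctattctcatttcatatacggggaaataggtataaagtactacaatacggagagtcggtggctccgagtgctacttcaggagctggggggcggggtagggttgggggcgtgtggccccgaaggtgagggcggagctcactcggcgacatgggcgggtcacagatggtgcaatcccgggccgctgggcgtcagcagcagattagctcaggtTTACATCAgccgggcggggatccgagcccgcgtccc
Chac1 (chr2:119350992-119351291, plus strand): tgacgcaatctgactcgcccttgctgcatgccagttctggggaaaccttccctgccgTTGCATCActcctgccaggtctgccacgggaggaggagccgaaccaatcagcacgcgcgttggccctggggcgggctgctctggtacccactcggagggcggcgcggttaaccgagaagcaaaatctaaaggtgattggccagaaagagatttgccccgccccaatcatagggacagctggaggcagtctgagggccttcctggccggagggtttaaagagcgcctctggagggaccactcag
In Trib3 the match lies just after the start site, and in Fgf21 and Chac1 before it. The core was present in all 4 lower members and in 2 of the 8 members that were not called, Asns and Nupr1. Over all windows the share was 3.97%. In the amino acid list it was present in 0 of 1 lower members with a window and in 6 of 16 members that were not called.

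**Figure D3:**
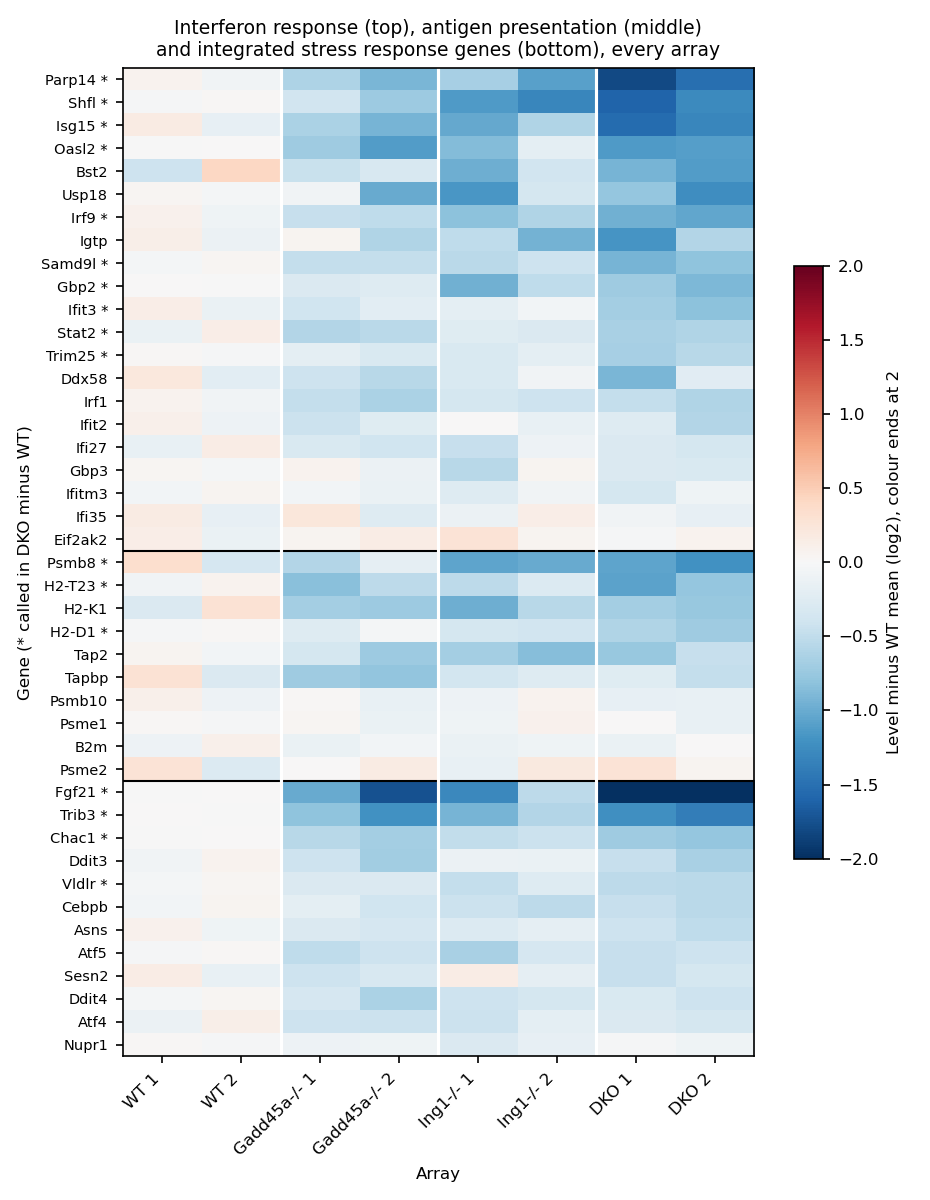
Level of each measured gene of the interferon, antigen presentation and integrated stress response lists on every array, minus the gene's WT mean (log2), in blue below and red above, with a star for genes called in DKO minus WT. The stars mark 10, 3 and 4 genes, and the DKO columns of starred genes are blue.

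Calls among matrix genes were read by family, beside the 2.38% of all genes called higher and 2.4% called lower. Of 7 measured small leucine-rich proteoglycans (14 listed), Lum, Dcn and Prelp fell and none rose. Prelp read 9.93 and 9.72 in WT and 9.03 and 8.99 in DKO, 1.76-fold lower (limma adjusted p = 0.0222), a call lost without WT replicate 1 or either DKO array. Bgn, the related biglycan, was among the brightest genes at 15.13 and 14.98 in WT and 14.998 and 15.01 in DKO and was not called. Of 18 measured collagen chains other than Col2a1, Col6a1, Col6a2 and Col15a1 fell and none rose, with a median log2 difference of -0.20. Col6a1 and Col6a2, chains of the beaded-filament collagen, fell by 0.65 and 0.79, and Col15a1, a basement membrane collagen, by 0.89. Dimmer Col6a1 probes differed by -0.50 and -0.93 and a dimmer Col6a2 probe by -0.55, and none of these was called. The collagen count of 3 was 1 without WT replicate 1 and 0 without WT replicate 2 or either DKO array.

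Among 17 measured elastic fibre genes, Mfap4 and Fbln1 fell while Mfap5 and Ltbp2 rose, beside 2.4% of all genes lower and 2.38% higher. Ltbp2 passed the detection filter only through DKO. Fbln1, fibulin-1, read 11.85 and 11.77 in WT and 11.15 and 11.06 in DKO, 1.63-fold lower (limma adjusted p = 0.0139), a call lost without WT replicate 1 or either DKO array. A dimmer Fbln1 probe was also called lower, while others, at -0.52 and -0.53, were not called. Mfap5, a microfibril glycoprotein, rose by 0.52 (log2, limma adjusted p = 0.0343), a call lost whichever array was left out. The Ltbp2 call (limma adjusted p = 0.049) was lost without either WT, Gadd45a-/- or DKO array and with no background correction, median scaling or the replicate block. Of 15 measured metalloproteinases and inhibitors, 4 fell and none rose. Besides Mmp13 they were Mmp9, a gelatinase, which read 9.89 and 9.84 in WT and 8.67 and 8.59 in DKO, Mmp11, which fell by 0.95, and Adamts4, an aggrecan-cleaving enzyme, which fell by 0.88. The count of 4 was 2 without WT replicate 2 or either DKO array. Mmp3, stromelysin-1, was not called at its brightest probe, while its other 2 probes, not above background in WT, were called higher (limma adjusted p = 0.0128 and 0.0464). The first of these calls was lost without WT replicate 1 or either DKO array and the second without either WT, Ing1-/- or DKO array.

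Only 3 of 18 listed cartilage and bone markers were measured. Col2a1 rose, and Sp7, the osteoblast factor osterix, was not above background in WT and at least 2.44-fold higher in DKO (limma adjusted p = 0.00899), with 5.51 and 5.68 in WT and 6.84 and 7.60 in DKO, a call lost without WT replicate 1. Sox9, the main cartilage transcription factor, read 10.89 and 11.01 in WT and 10.46 and 10.68 in DKO, a log2 difference of -0.38 that was not called.

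BMPs are secreted growth factors that induce Id genes and shape bone, cartilage and limb. Of 18 measured genes of this pathway (29 listed), 4 rose and 1 fell, against 2.38% and 2.4% of all genes. Bmp4, a ligand, read 6.32 and 6.53 in WT and 8.12 and 8.19 in DKO, 3.32-fold higher (limma adjusted p = 0.000989). The response genes Id1 and Id2 rose by 1.29 and 1.13 (log2, limma adjusted p = 0.00129 and 0.0265). A dimmer Id2 probe differed by 1.07 and was not called (limma adjusted p = 0.0928). Fst, the secreted antagonist follistatin, rose by 0.68 (log2, limma adjusted p = 0.0274). Msx1, a homeobox gene induced by BMP signals in the limb, read 7.54 and 7.14 in WT and 6.33 and 6.07 in DKO and fell by 1.14 (log2, limma adjusted p = 0.0432). The rise count of 4 was 2 without either DKO array, the Id2 call was lost without WT replicate 1 or either DKO array, and the Msx1 call was lost without either WT, Ing1-/- or DKO array.

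Transcription factors that pattern the mesenchyme changed in both directions. Of 30 measured (61 listed), 6 rose and 2 fell, against 2.38% and 2.4% of all genes. The median log2 difference of 0.06 turned negative under median scaling. Tbx4, a hindlimb and lung factor, read 6.01 and 5.98 in WT and 7.47 and 7.41 in DKO, 2.72-fold higher (limma adjusted p = 0.000989). Dlx2, a factor of the branchial arches, was at least 1.99-fold higher, with 5.53 and 5.19 in WT and 6.50 and 7.36 in DKO (limma adjusted p = 0.0175). Foxc2, a forkhead factor of somites and vessels, rose by 1.18 and its relative Foxc1 was at least 1.97-fold higher. Lhx9 was at least 1.28-fold higher and Meox1, a somite factor, rose by 1.14. Dlx2, Foxc1 and Lhx9 passed the detection filter only through DKO, where they were high, and such a filter favours rises. With probes detected on all 4 WT and DKO arrays, 3 of 25 members rose and 1 fell. Msx1 and Lhx8 fell, the latter by 0.92 (log2, limma adjusted p = 0.0384). The rise count of 6 was 3 without DKO replicate 2. The Dlx2 call was lost without WT replicate 2 or DKO replicate 2, and the Foxc2 call without WT replicate 1 or either DKO array. A dimmer probe of Tbx3 rose by 0.85 (limma adjusted p = 0.0156) while the brightest was not called, and that call was lost under median scaling and without WT replicate 2 or either DKO array.

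Hox genes, which mark position along the body axis, were called at 4 of 17 measured members (35 listed), while 4.78% of all genes were called. Hoxa5 read 7.16 and 7.30 in WT and 8.19 and 8.14 in DKO and rose by 0.93 (log2, limma adjusted p = 0.0104). Hoxa7 rose by 0.76 (log2, limma adjusted p = 0.0325). Hoxd8 read 9.58 and 9.54 in WT and 8.49 and 8.56 in DKO and fell by 1.04 (log2, limma adjusted p = 0.00247). Hoxa2 was not above background in DKO and at least 1.61-fold lower (limma adjusted p = 0.0471). The calls of Hoxa5 and Hoxa7 were lost under median scaling, without WT replicate 1 and without either DKO array, and that of Hoxa7 also without WT replicate 2 or either Ing1-/- array. The Hoxa2 call was lost with no background correction, with the replicate block and without any one array other than WT replicate 1. Its second probe was also called lower (limma adjusted p = 0.00491).

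Of 13 measured secreted chemokines and cytokines, 5 were lower and 3 higher, against 2.4% and 2.38% of all genes. Cxcl1, a neutrophil attractant, read 9.01 and 9.30 in WT and 7.73 and 7.83 in DKO, 2.59-fold lower (limma adjusted p = 0.00179). Ccl11, the eosinophil attractant eotaxin, was not above background in DKO and at least 1.97-fold lower (limma adjusted p = 0.00191). Ccl2, Ccl7 and Cxcl14 fell by 0.92, 0.58 and 0.88 (log2). Il11, a cytokine of the IL-6 family, read 7.87 and 7.74 in WT and 9.13 and 9.39 in DKO, 2.74-fold higher (limma adjusted p = 0.00127). Il1rn, the natural antagonist of the IL-1 receptor, was at least 1.42-fold higher and Tslp at least 1.38-fold higher. Il1rn and Tslp passed the detection filter only through DKO, where they were high, and Ccl11 only through WT. With probes detected on all 4 WT and DKO arrays, 4 of 10 members were lower and 1 higher. The lower count of 5 was 3 without WT replicate 1 or either Gadd45a-/- array and 2 without WT replicate 2 or either DKO array, and the higher count of 3 was 1 without either DKO array.

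**Figure D4:**
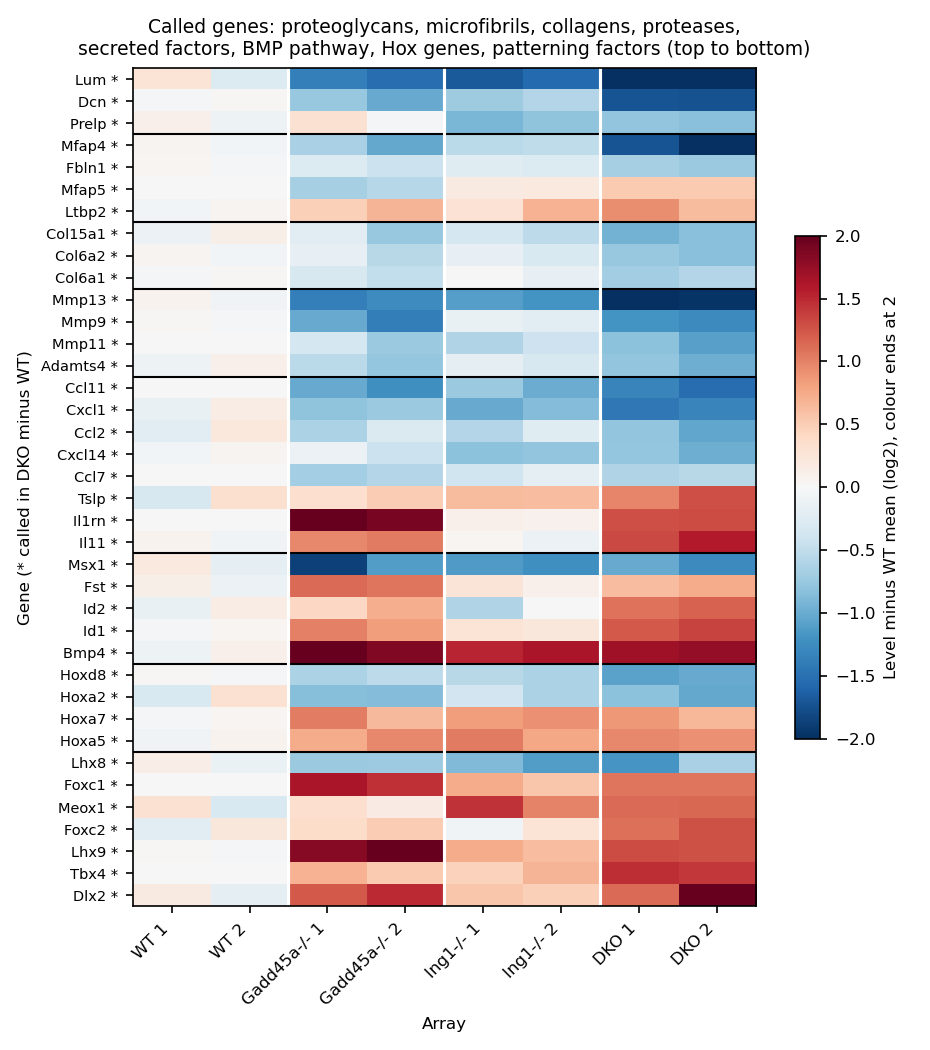
Level of called genes on every array minus the gene's WT mean (log2), in blue below and red above, in blocks of proteoglycans, microfibril genes, collagens, proteases, secreted factors, BMP pathway, Hox genes and patterning factors. Bmp4 is red and Lum blue in the DKO columns, and every row was chosen by its call.

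Complement and oxidative stress genes differed in their share of calls. Of 8 measured complement genes, C2, Cd59a and Serping1 fell (37.5%) and Masp1 rose (12.5%). Over all genes 2.4% were lower and 2.38% higher. Masp1, a protease of the lectin pathway, read 10.47 and 10.57 in WT and 11.52 and 11.70 in DKO, 2.13-fold higher (limma adjusted p = 0.00415). Cd59a, a membrane inhibitor of complement lysis, read 10.60 and 10.56 in WT and 9.78 and 9.51 in DKO, 1.91-fold lower (limma adjusted p = 0.0102). C2 was not above background in DKO and at least 1.71-fold lower (limma adjusted p = 0.00497). Of 21 measured oxidative stress genes, only Gsta4 was called (4.76%), near the 4.78% of all genes called. Gsta4, a glutathione transferase that detoxifies lipid aldehydes, read 7.07 and 7.40 in WT and 8.43 and 8.54 in DKO (limma adjusted p = 0.00342). The lower complement count of 3 was 1 without WT replicate 1 or DKO replicate 2, and the Serping1 call was lost without either WT, Ing1-/- or DKO array.

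Pdgfra and Tgfbr2, which encode growth factor receptors, were lower in DKO. Pdgfra, the PDGF receptor typical of mesenchymal cells, read 11.06 and 11.26 in WT and 10.003 and 9.90 in DKO, 2.31-fold lower (limma adjusted p = 0.00247). Tgfbr2, a TGF-beta receptor, read 12.21 and 12.13 in WT and 11.43 and 11.49 in DKO, 1.63-fold lower (limma adjusted p = 0.0103), and the ligand Tgfb2 rose by 0.85 (log2, limma adjusted p = 0.0274). With Myh11, smooth muscle myosin, which rose by 1.03, and Tgfbi, which fell by 0.72, Tgfbr2 and Tgfb2 were the 4 called among 27 measured contractile and TGF-beta genes. In that list 7.41% were higher and 7.41% lower, against 2.38% and 2.4% of all genes. The Tgfbi call was lost whichever array was left out. The Tgfbr2 and Myh11 calls were lost without WT replicate 1 or either DKO array, and the Tgfb2 call without either WT or either DKO array. Pparg, the fat cell factor, read 7.07 and 7.13 in WT and 8.06 and 8.00 in DKO and rose by 0.92 (log2, limma adjusted p = 0.0184). Pdgfra and Pparg were the calls among 12 measured adipogenic genes (8.33% lower and 8.33% higher), and the Pparg call was lost without either WT or either DKO array. A dimmer probe of Ebf2, not above background in WT, was called higher as well (limma adjusted p = 0.0295), a call lost without either WT, Gadd45a-/- or DKO array. Wnt2 rose by 0.88 among 15 measured WNT genes, a call lost under median scaling, with the replicate block and without any one array other than WT replicate 2. Igfbp3 was the only call among the brightest probes of 13 genes of the IGF axis. The shares called in the WNT list (6.67%) and the IGF list (7.69%) were near the 4.78% of all genes called. A dimmer probe of Igf1 fell by 0.69 (log2, limma adjusted p = 0.0219), a call lost without either WT or either DKO array.

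Genes of the processes most often linked to Gadd45a and Ing1 gave few or no calls at this number of arrays. Over all genes 4.78% were called, and at that share lists this short would hold few calls. By the brightest probe of each gene, none was called among 31 cell cycle genes, 9 CDK inhibitor and RB family genes, 17 p53 targets and 19 genes of DNA methylation, demethylation and excision repair. Cdkn1a, the p53-induced inhibitor p21, read 12.27 and 12.30 in WT and 12.61 and 12.70 in DKO at its brightest probe, a log2 difference of 0.37 (limma adjusted p = 0.121). Its other 2 probes were called higher. One rose by 0.75 on the log2 scale with a limma adjusted p of 0.0413, and the second rose by 0.52 with an adjusted p of 0.0474. Both calls were lost under median scaling, the first without any one array other than WT replicate 2 and the second whichever array was left out. Mdm2, the p53 ubiquitin ligase, read 11.92 and 11.87 in WT and 12.36 and 12.35 in DKO, a difference of 0.46 (limma adjusted p = 0.123). Tet1, a dioxygenase that oxidises methylated cytosine, was above background in WT only, at 6.68 and 6.28 against 5.82 and 5.73 in DKO (limma adjusted p = 0.0552). Among 16 measured genes of the ING and GADD45 families and their partners, only Gadd45a was called. The genotypes did not overlap at the brightest probe of Cdkn1a, Mdm2 and Tet1, but neither did they at 46.6% of all probes tested.

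Lists of basic metabolism gave few or no calls, while 4.78% of all genes were called. At that share, lists this short would hold few calls. By the brightest probe, none was called among 33 respiratory chain subunits, 15 chaperones of the endoplasmic reticulum and 16 cholesterol synthesis genes. The cholesterol list had a median log2 difference of -0.39, with Dhcr7, the last enzyme of the pathway, at 7.74 and 7.99 in WT and 7.14 and 7.21 in DKO (limma adjusted p = 0.0589), and 5 of its genes were lower with no background correction. A dimmer probe of Insig1, a brake on this pathway, fell by 0.81 (log2, limma adjusted p = 0.0321), a call lost without any one array other than WT replicate 2. Of 9 fatty acid synthesis genes, Fads2, a desaturase, fell by 0.51, a call lost whichever array was left out. Of 21 glycolysis and hypoxia genes, Ndrg1 fell by 0.86 (log2, limma adjusted p = 0.00972), a call lost without DKO replicate 2. Of 18 heat shock genes, the small chaperones Hspb1 and Cryab rose by 0.62 and 0.56, and both calls were lost under median scaling. The Cryab call was also lost whichever array was left out, and the Hspb1 call without either WT, Ing1-/- or DKO array.

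**Figure D5:**
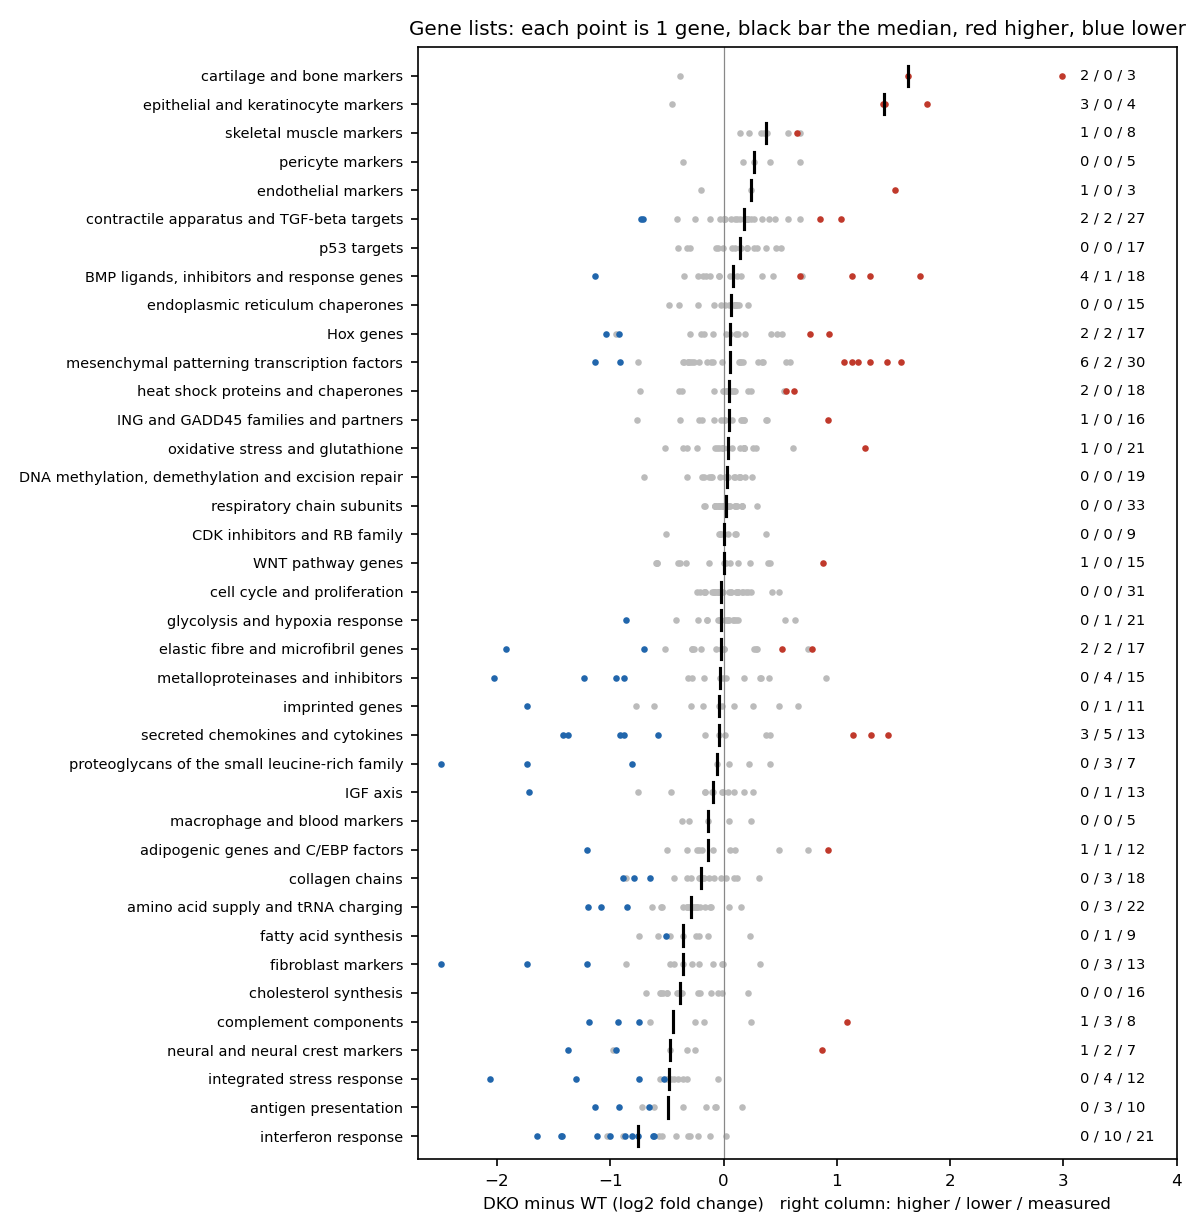
Log2 fold change of DKO minus WT for every measured gene of 38 lists, 1 point per gene, with red called higher, blue called lower, gray not called and a black bar at the list's median. Numbers at the right give higher, lower and measured genes, and the interferon list has the lowest median and 10 lower genes of 21.

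Markers of other cell types were read beside these results. Of 4 measured epithelial markers (18 listed), Pkp1, Sfn and Krt19 rose. All of these passed the detection filter only through DKO, where they were high. The list's summed level was 7.80 to 7.87 on the WT arrays and 8.97 to 9.10 on the DKO arrays. Such a filter favours a higher sum in DKO, so the sum is no evidence of more epithelial RNA. Sfn, the epithelial 14-3-3 protein, was at least 2.04-fold higher and Krt19, a keratin of simple epithelia, at least 2.10-fold higher, a call lost without DKO replicate 2. Krt5, Krt14, Epcam, Cdh1 and Trp63, which define epithelia, were not above background on any WT or DKO array. The part of epithelial cells in the rises of Aqp5 and Pkp1 was not tested.

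The remaining marker lists were short, and their shares of calls varied, while 4.78% of all genes were called (2.38% higher and 2.4% lower). Among neural and neural crest markers 14.3% were higher and 28.6% lower, and among fibroblast markers 23.1% were lower. Of 7 measured neural and neural crest markers, Gap43, a growth cone protein, read 8.08 and 8.14 in WT and 6.77 and 6.70 in DKO, 2.59-fold lower (limma adjusted p = 0.00256). Ngfr, above background on 1 DKO array, fell by 0.95 and Nes, the filament protein nestin, rose by 0.87. A dimmer Nes probe differed by 0.76 and was not called (limma adjusted p = 0.0558). The Ngfr call was lost without WT replicate 1 or DKO replicate 1, and the Nes call without WT replicate 1 or either DKO array. Of 3 measured endothelial markers only Emcn, a surface mucin that passed the detection filter only through DKO, was called. It was at least 2.43-fold higher (limma adjusted p = 0.00342), while Pecam1, Cdh5, Kdr and Tek were not above background on any WT or DKO array. Among 8 measured skeletal muscle markers only Tnnc1 was called, higher by 0.65, a call lost whichever array was left out, and Myod1 and Myog were not above background on any WT or DKO array. None of 5 measured macrophage markers was called, and their summed level was 10.71 to 10.86 in WT and 10.53 to 10.57 in DKO. The fibroblast markers summed to 16.79 to 16.84 in WT and 16.54 to 16.63 in DKO, with Lum, Dcn and Pdgfra lower.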

How the data were processed

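RNA of 8 fibroblast samples, 2 for each of 4 genotypes, was labelled as biotinylated cRNA and read on 1-colour Illumina mouse arrays, per the labels' protocols. The deposited raw table gives, per the file headers, the average intensity of every probe, not log-transformed, with its detection p-value. GenomeStudio 2011.1 is named in the submitters' processing notes. A second deposited table holds intensity values that the authors had processed by a method the labels do not state, and it served as an alternative. Neither table names a slide or batch.

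Intensities were background-corrected with limma 3.58.1 in R 4.3.3 (normexp with negative controls inferred from detection p-values, offset 16), quantile-normalized and converted to log2. Probes with a detection p under 0.01 on both arrays of WT or DKO were kept. A model with a mean for each genotype was fitted to the 8 arrays together (lmFit, eBayes, 4 residual and 3.89 prior df). Benjamini-Hochberg adjustment ran over 14353 probes in each contrast. Replicates had a median SD of 0.119 (WT) and 0.0867 (DKO). The offset understates changes of dim probes, and the number of arrays limits the precision.

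The platform annotation gave 1 symbol for 34885 of 45281 probes, several for 18 and none for 10378. Symbols were updated through the mouse gene table (GRCm38.p6), which 34807 probes matched. The brightest kept probe stood for a gene in 39 gene lists. The text names the targeted genes, the 15 strongest rises and 15 strongest falls among called probes with 1 symbol and no overlap (1 probe per gene), and up to 4 most changed members of each list, and further list members are given to complete a count. Dimmer probes called where a list gene's brightest probe was not were added after their values were seen. So were some dimmer probes not called where the brightest was. The members, lists, tests and alternatives were chosen with earlier results of these data known, and no set test was made. Equal replicate numbers were not taken as pairs, since the correlation of deviations from the genotype means was 0.0912 between WT and DKO and ran from -0.0971 to 0.283 over all genotype pairs. The fit was tested on simulated data, and alternatives covered background correction, normalization, offset, filters, the samples fitted, a replicate block, eBayes, array weights, the threshold and each array left out.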

Additional observations from a re-analysis of the deposited data

How the results depend on the processing

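The calls of DKO against WT, against Gadd45a-/- and against Ing1-/- numbered 603 (289 higher, 314 lower), 52 (23 and 29) and 158 (101 and 57). Counts that moved by over 1.5 times were as follows. With no background correction DKO against Gadd45a-/- gave 86 (39 higher, 47 lower) and against Ing1-/- 238 (108 lower). Median scaling gave 131 higher against WT (25.1% of calls against 47.9%) and 36 lower against Ing1-/-. With no detection filter the totals were 317 (142 and 175), 17 (8 and 9) and 56 (34 and 22). With probes detected on all 4 WT and DKO arrays, DKO against Gadd45a-/- gave 32 (14 and 18). With only the genotypes compared, there were 353 against WT (156 and 197) and 21 against Gadd45a-/- (12 and 9), a fit with fewer arrays. A trended robust prior gave 102 (44 and 58) against Gadd45a-/- and 275 (127 lower) against Ing1-/-, and array weights 94 (42 and 52) and 268 (156 and 112). At an adjusted p under 0.01 there were 213 (98 and 115), 12 (7 and 5) and 27 (19 and 8). The causes of these moves were not tested beyond the fewer arrays, probes or stricter threshold that define some of them. With the replicate number as a block the totals were 588, 43 and 134. Leaving out 1 array at a time, where a lone array is taken to vary like the other genotypes, gave 174 to 528 calls against WT (87 to 252 higher, 87 to 276 lower), 4 to 70 against Gadd45a-/- (2 to 31 higher, 2 to 39 lower), and 7 to 183 against Ing1-/- (6 to 118 higher, 1 to 65 lower). Of 95 named probes called, 46 kept their call with every array left out and 57 in every other alternative, and 0 changed sign.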
